A study of Coelastrella tenuitheca with 9 samples.

Results

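Genes named for protein kinases and protein phosphatases were followed in wild-type Coelastrella tenuitheca S93-3, a green microalga of fresh water, at 0, 20 and 50 mg/L cadmium chloride (CdCl2). Members were the genes whose deposited product, without its bracketed organism, held words such as protein kinase, kinase-like, serine/threonine, calmodulin or protein phosphatase and none of cyclin, lipid or ubiquitin. This gave 51 of the 12605 genes in the table, of which 48 had enough counts to be tested. The groups were Control (no CdCl2), Cd20 (20 mg/L CdCl2) and Cd50 (50 mg/L CdCl2), with 3 poly(A)-selected, strand-specific RNA libraries each, all made in batch 1 from cells pre-cultured with glucose in light and then kept in the stated medium for 7 days. Libraries are named by group and number (Control 1, Cd20 1, Cd50 1 and so on). Their totals lay between 10457007 and 15456743 counts. Nothing in the labels ties the 3 libraries to separate cultures, and p-values therefore measure the spread between these libraries, which may be technical.

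Protein kinases move a phosphate group from ATP onto other proteins, and protein phosphatases take it off again. Together they switch enzymes, channels and transcription factors between states, and chains of kinases such as the MAP kinase cascade pass signals on inward from the cell surface. In plants and algae, calcium sensors and stress-responsive kinases and phosphatases are known to take part in responses to salt, cold, drought and metals.

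The product of each of the 51 members names a fungus, so a name says which fungal protein the gene resembles, its own function not having been tested. Of the 51, 34 had names of protein kinases, 13 had names with the word phosphatase and 1 was calmodulin. The 13 include A06393, named for a phosphatase methylesterase. Another 3 had names of kinases that act on small molecules (ribokinase-like A03124 and A09572, and A09875, an ATP-NAD kinase-like gene). For 23 of the 34 kinases the name said no more than protein kinase or kinase-like. No histidine kinase, calcium-dependent kinase or tyrosine kinase name was among the 51. Of the 12605 genes, only 2457 (19.5%) carried any product. Genes without a product could not be listed, so a missing name does not show a missing gene. The genes lay on 16 of the 17 numbered chromosomes of the deposited table, whose build no source used here names, and none overlapped another listed gene. A08836 and A08837 on chromosome 6, both named for the phosphatase yvh1, were neighbours 1627 bases apart. All 51 listed lengths were multiples of 3, as were 91.9% of those of all genes. They ran from 390 to 2844 bases, with a median of 1194 against 1269 over all genes. No sequence is shown because none was in the files used here.

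Control 1 and Cd50 1 lay apart from the other libraries of their groups on the first principal component, at -12.2 against 13.8 and 29.0, and at 17.7 against 51.3 and 52.7. Counts are therefore also given without these 2 libraries, an alternative added with the data in hand. As a check of the labelled photosynthetic cell, all 16 chlorophyll-binding, Rubisco and photosystem genes found by product words had counts in the 3 controls, and their summed level ran from 1786 to 3156 CPM over the 9 libraries. Of the 16, 15 had counts in Cd20 1 and Cd50 3 and all 16 in the other libraries. By group the range was 2932 to 3156 CPM at 0 mg/L, 1786 to 2000 CPM at 20 mg/L and 2029 to 2328 CPM at 50 mg/L, and the part of this shift in the results was not tested.

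Per listed length, the kinase and phosphatase messages stood above the middle of all genes and spread widely. Their median was 25.4 FPKM (the deposited level, scaled to gene length and library size) over the 9 libraries, against 14.9 FPKM for all 11140 genes tested. Members could come only from genes with a product, and no median was taken over those alone. The range was from 0.563 to 242 FPKM. At the top stood calmodulin A07509 (242 FPKM), the small protein that binds calcium and then binds and switches other proteins, and A01218 (231 FPKM), named for SCH9, a budding yeast kinase of the AGC family that acts below the nutrient sensor TOR. The short gene A04458 (214 FPKM), named as a protein phosphatase 2C-like protein, came next. After it stood A06393 (174 FPKM), a phosphatase methylesterase, and the unspecified protein kinase A06577 (174 FPKM). In all, 6 members reached 100 FPKM and 12 lay under 10 FPKM. Lowest of those tested was the kinase-like domain gene A05982 (0.563 FPKM). Not tested were the dual-specificity phosphatase gene A04251, the yvh1 gene A08836 and the kinase-like A02801, with 11, 21 and 33 counts in the 9 libraries together.

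**Figure D1:**
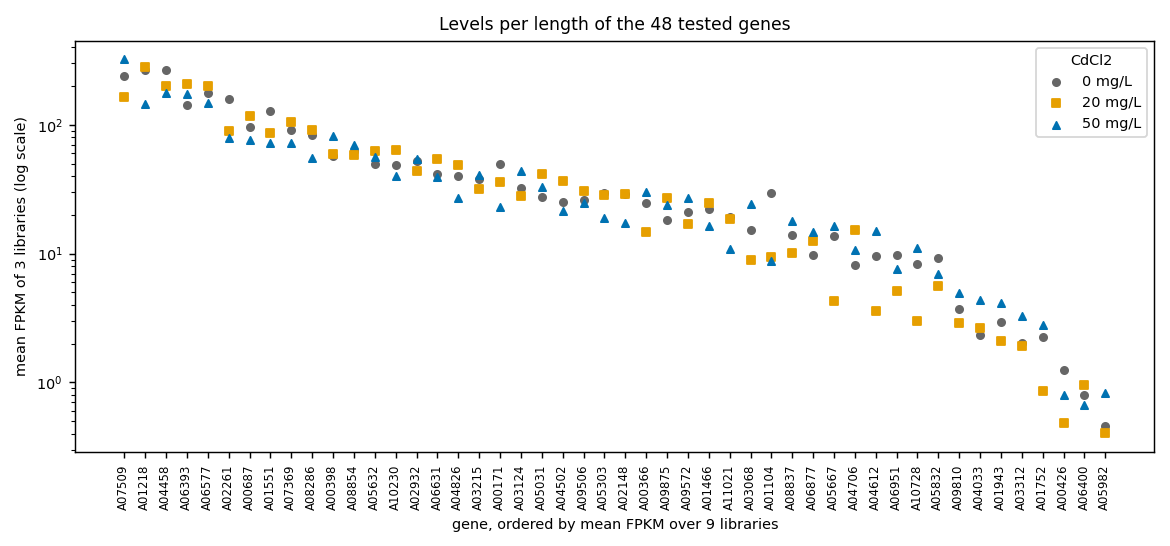
Mean FPKM of 3 libraries per group, on a log scale, for the 48 tested genes ordered by their mean over all 9 libraries; circles stand for 0 mg/L, squares for 20 mg/L and triangles for 50 mg/L CdCl2. The group means run from 322 FPKM for calmodulin A07509 at 50 mg/L, at the left, to 0.401 FPKM for A05982 at 20 mg/L, at the right.

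The 51 genes together made up 2587 to 3007 CPM (counts scaled to library size and TMM factor) at 0 mg/L, 2939 to 3112 CPM at 20 mg/L and 1889 to 2164 CPM at 50 mg/L, where the Cd50 libraries lay under all others. The 3 comparisons share libraries in pairs, so each is given with its own values. Calls rest on edgeR's quasi-likelihood test at an adjusted p (Benjamini-Hochberg, over all 11140 genes tested) under 0.05, and only called genes are said to have risen or fallen. In at least 1 comparison 38 of the 48 tested members were called, or 79.2%, where 81.7% of all genes were. The 2330 tested genes with a product gave 626 rises and 714 falls in Cd20 against Control, or 57.5% called. They gave 408 and 455 in Cd50 against Control (37.0%), and 930 and 799 in Cd50 against Cd20 (74.2%). All levels are shares of the messenger RNA pool of a culture, in which fewer cells with a message and less of it per cell cannot be told apart.

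At 20 mg/L against control, kinase and phosphatase messages went both ways, at about the rate of all genes. Of the 48 tested, 12 rose and 14 fell, or 25.0% and 29.2%, where 23.8% and 27.2% of all genes tested did and 51.0% were called in either direction. The median log2 fold change was 0.02 for the members and -0.03 for all genes. These medians were -0.10 and -0.16 when scaled by library size, and under upper quartile scaling -0.06 and -0.13. At least 2-fold changes were 1 rise and 6 falls, or 2.08% and 12.5% of the members, where the shares over all genes were 4.52% and 10.6%. Of the members, 16 were higher and 17 lower in all 3 Cd20 libraries than in all 3 controls, where 30.2% and 31.4% of all genes were. The members' count of rises moved with the library left out. Leaving out Control 3 gave 5 rises, leaving out Control 2, Cd20 2 or Cd20 3 gave 6, and leaving out Cd20 1 gave 7. The shares of all genes called in these fits are not given here, so these counts cannot be set beside them. Without both Control 1 and Cd50 1 there were 17 rises and 15 falls, or 35.4% and 31.2%, where 32.7% and 33.4% of all genes were called. Scaled by library size, 7 rose and 16 fell, or 14.6% and 33.3%, where 18.4% and 31.9% of all genes did.

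At 50 mg/L against control, falls outnumbered rises. Of the 48, 20 fell and 2 rose, or 41.7% and 4.17%, where 21.8% of all genes fell, 17.8% rose and 39.6% were called in either direction. The median log2 fold change was -0.17 for the members and 0.03 for all genes. The members' median turned to 0.07 scaled by library size (all genes 0.26) and was -0.0065 under upper quartile scaling (all genes 0.19). Changes of at least 2-fold were 6 falls (12.5% of the members, against 5.62% of all genes) and 0 rises (against 3.74%). The groups did not overlap for 20 lower and 5 higher members, where 23.6% and 23.3% of all genes did not. Falls numbered 14 without Cd50 3 and 15 without Cd50 2, and without both Control 1 and Cd50 1 there were 22 falls and 8 rises, where 26.3% of all genes fell and 22.7% rose. Leaving out Control 3, Cd20 2, Cd50 2 or Cd50 3 gave 0 rises, leaving out Control 1 or Control 2 gave 1, and there were 4 without Cd50 1. With the replicate number as a block in the 6 libraries compared, 6 rose and 22 fell, and over all 9 libraries 3 rose and 21 fell. For these block fits, and for the fits that left out 1 library, the shares of all genes called are not given here. Those member counts therefore cannot be set beside them. Scaling moved this split: scaled by library size 7 rose and 14 fell, or 14.6% and 29.2%, where 34.6% and 14.2% of all genes did, and under upper quartile scaling 5 rose and 17 fell, or 10.4% and 35.4%, where 28.0% and 16.5% of all genes did.

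Between the cadmium groups, 24 of the 48 were lower and 9 higher in Cd50 than in Cd20, or 50.0% and 18.8%, where 34.7% and 35.3% of all genes were, and 70.0% were called in either direction. The members' median log2 fold change was -0.49, and that of all genes 0.03. Scaled by library size they were -0.14 and 0.385, and under upper quartile scaling -0.24 and 0.28. At least 2-fold, 7 members fell (14.6%, against 9.32% of all genes) and 5 rose (10.4%, against 16.7%). For 23 members every Cd50 library lay under every Cd20 library, and for 10 every one lay above, where 36.9% and 37.6% of all genes did so. The 24 that fell had a median of 41.8 FPKM over the 9 libraries and the 9 that rose had 11.6 FPKM. Over all genes the same medians were 36.5 FPKM and 9.12 FPKM. Scaled by library size 18 fell and 16 rose, or 37.5% and 33.3% (all genes 20.3% and 48.8%), and under upper quartile scaling 20 fell and 15 rose, or 41.7% and 31.2% (all genes 24.6% and 44.6%). Without both Control 1 and Cd50 1, 25 fell and 13 rose, or 52.1% and 27.1% (all genes 38.0% and 39.7%).

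**Figure D2:**
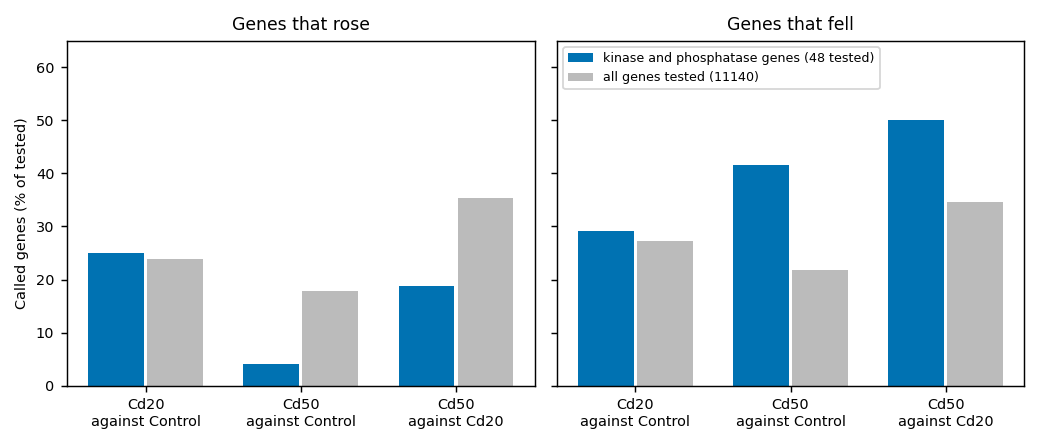
Share of tested genes, in percent, that rose (left) or fell (right) at an adjusted p under 0.05 in each comparison, with the 48 kinase and phosphatase genes beside all 11140 genes tested. In Cd50 against Control 41.7% of the members and 21.8% of all genes fell, and 4.17% and 17.8% rose; with library size alone as the scaling, 29.2% of the members and 14.2% of all genes fell and 14.6% and 34.6% rose.

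**Figure D3:**
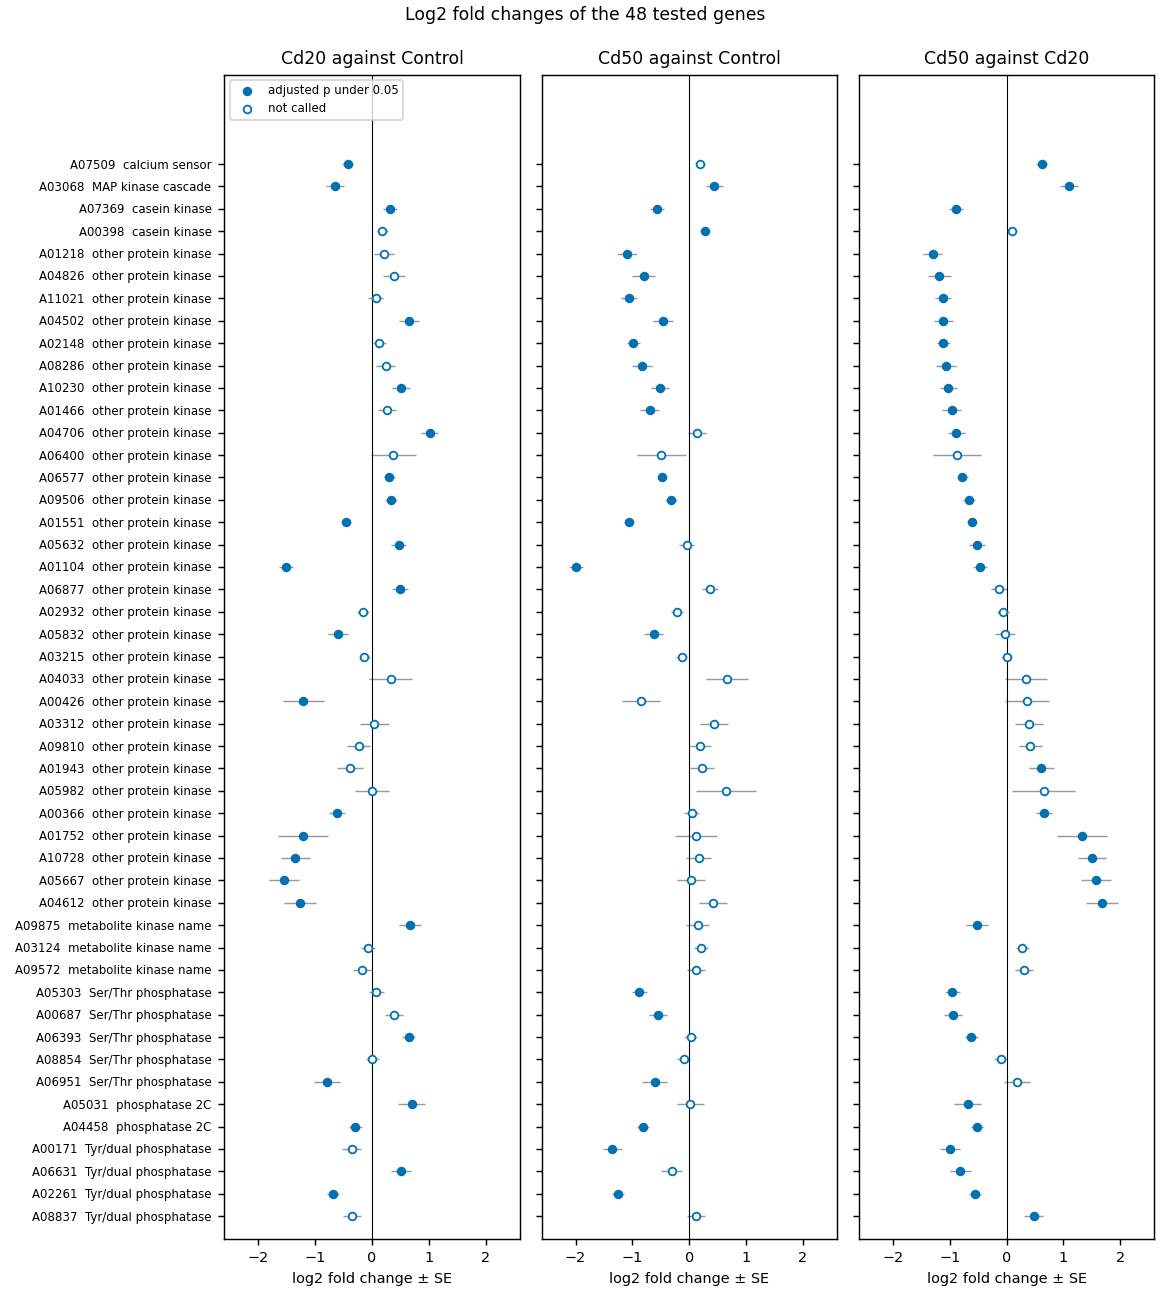
Log2 fold change with its SE for each of the 48 tested genes in the 3 comparisons, grouped by role, with filled circles for an adjusted p under 0.05. The values run from -1.99 (A01104, Cd50 against Control) to 1.68 (A04612, Cd50 against Cd20).

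Calmodulin, the calcium sensor of the list, was lower at 20 mg/L than at either other concentration. A07509, on chromosome 4 from 4192077 to 4193771, had 110.1, 119 and 112 CPM at 0 mg/L, 90.3, 78.4 and 84.2 CPM at 20 mg/L and 123, 129 and 136 CPM at 50 mg/L. The Cd20 libraries were the 3 lowest and the Cd50 libraries the 3 highest, with no overlap between any pair of groups. It fell in Cd20 against Control (log2 fold change -0.43, SE 0.09, edgeR adjusted p = 0.00301) and was higher in Cd50 than in Cd20 (log2 fold change 0.62, SE 0.09, edgeR adjusted p = 0.000198). Against Control, its value in Cd50 was 0.19 on the log2 scale (edgeR adjusted p = 0.128), which passed at an adjusted p of 0.0056 to 0.0487 when scaled by library size, with a replicate block, only the 6 libraries compared and under upper quartile scaling, and without both Control 1 and Cd50 1. A gene whose family name refers to calmodulin was also listed. A00426 is putatively named as a calmodulin-dependent kinase kinase, of a family that in fungi and animals activates other kinases by phosphorylating them. It was near the bottom of the range (0.845 FPKM), with 1.58, 3.56 and 2.0 CPM at 0 mg/L, 0.868, 1.22 and 0.937 CPM at 20 mg/L and 1.08, 1.54 and 1.26 CPM at 50 mg/L. It fell in Cd20 (log2 fold change -1.21, edgeR adjusted p = 0.0155), a call lost at an adjusted p of 0.052 to 0.0776 without Cd20 1, Cd20 3 or Control 2. In Cd50 its value was -0.86 without passing (edgeR adjusted p = 0.0615), and it passed at an adjusted p of 0.0234 to 0.0289 with a replicate block, all 9 libraries and with a replicate block, only the 6 libraries compared, and without Control 1 or both Control 1 and Cd50 1.

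The gene named for the start of a MAP kinase cascade was also lowest at 20 mg/L. A03068 is described as a Ste20-like kinase, after the budding yeast kinase that activates the MAP kinase kinase kinase at the head of a cascade. Its libraries had 25.5, 36.1 and 33.1 CPM at 0 mg/L, 23.2, 19 and 17.9 CPM at 20 mg/L and 38, 44.3 and 46 CPM at 50 mg/L. No Cd20 library reached the lowest control, and no control reached the lowest Cd50 library. It fell in Cd20 (log2 fold change -0.65, SE 0.16, edgeR adjusted p = 0.00493), and was higher in Cd50 than in Cd20 (log2 fold change 1.09, SE 0.16, edgeR adjusted p = 0.000139). The rise in Cd50 against Control was 0.44 (edgeR adjusted p = 0.0363), a call lost at an adjusted p of 0.0503 to 0.105 with only the 6 libraries compared, and without Cd20 2, Cd50 2, Cd50 3, Control 1 or Control 3.

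Casein kinase II, a kinase active at all times that phosphorylates acidic sites in many proteins, had 2 genes for its catalytic alpha subunit, which differed in their course. A07369, on chromosome 4 from 3311736 to 3313260, had 97.7, 103 and 96.3 CPM at 0 mg/L, 124, 123 and 123 CPM at 20 mg/L and 81.2, 60.5 and 57.7 CPM at 50 mg/L. Every Cd50 library lay under every control and every Cd20 library above them. A00398, on chromosome 10 from 3531399 to 3534555, had 63.7, 65.5 and 65.2 CPM at 0 mg/L, 78.2, 71.8 and 70.6 CPM at 20 mg/L and 74.6, 83.7 and 77.3 CPM at 50 mg/L, with the controls lowest. In Cd50 against Control A07369 fell (log2 fold change -0.57, SE 0.12, edgeR adjusted p = 0.00344) while A00398 rose (log2 fold change 0.28, SE 0.09, edgeR adjusted p = 0.032). In Cd50 against Cd20, A07369 fell by 0.89 on the log2 scale (edgeR adjusted p = 0.000118) and A00398 was at 0.10 (edgeR adjusted p = 0.371). In Cd20 against Control, A07369 rose by 0.32 (edgeR adjusted p = 0.0442) and A00398 was at 0.18 (edgeR adjusted p = 0.119). The value of A00398 in Cd50 against Cd20 passed at an adjusted p of 0.00193 when scaled by library size and 0.00768 under upper quartile scaling, and that in Cd20 against Control at 0.0195 in limma on log2 CPM without each library's length trend. Both small rises were weak calls. That of A00398 in Cd50 was lost at an adjusted p of 0.0525 to 0.112 with only the 6 libraries compared, and without Cd20 2, Cd50 2, Cd50 3, Control 1, Control 2 or Control 3. That of A07369 in Cd20 was lost at an adjusted p of 0.0586 to 0.13 when scaled by library size and under upper quartile scaling, and without Cd20 1, Cd20 2, Cd20 3, Control 1, Control 2 or Control 3. The 2 genes share a product name, and the sources used here do not say how reads that match both were counted.

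Among kinases with a family name, the abundant SCH9-like gene fell at the higher concentration. A01218, on chromosome 12 from 3711724 to 3714756, had 522, 377 and 421 CPM at 0 mg/L, 475, 493 and 559.6 CPM at 20 mg/L and 268, 184 and 167 CPM at 50 mg/L. Every Cd50 library lay under every library of the other groups, and Cd20 and Control overlapped. It fell in Cd50 against Control (log2 fold change -1.09, SE 0.17, edgeR adjusted p = 0.000459) and against Cd20 (log2 fold change -1.30, SE 0.17, edgeR adjusted p = 9.74e-05), and its value in Cd20 against Control was 0.21 (edgeR adjusted p = 0.314), which without both Control 1 and Cd50 1 was 0.37 and passed (edgeR adjusted p = 0.000923). Within their groups, the displaced libraries Control 1 and Cd50 1 had the highest values, and the fall in Cd50 was a call in each setting run. The other AGC-family member, A03215, is named for NDR, a kinase of cell shape and polarity in fungi and animals. Its 64.8, 55.3 and 55.3 CPM at 0 mg/L, 51.6, 53.9 and 54.4 CPM at 20 mg/L and 52.8, 52.9 and 54.1 CPM at 50 mg/L gave no call in any comparison, with log2 fold changes of -0.13 in Cd20 and -0.13 in Cd50 against Control (edgeR adjusted p = 0.277 and 0.296). In Cd50 against Cd20 A03215 passed as higher in Cd50 at an adjusted p of 0.00688 when scaled by library size and 0.0299 under upper quartile scaling. A11021, named only as a serine/threonine kinase, had 22.9, 19.9 and 19.2 CPM at 0 mg/L, 19.1, 22.3 and 23.5 CPM at 20 mg/L and 10.9, 9.08 and 9.89 CPM at 50 mg/L, so that the Cd50 libraries stood apart below the rest. It fell in Cd50 against Control by 1.06 and against Cd20 by 1.12 on the log2 scale (edgeR adjusted p = 0.000129 and 7.50e-05).

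Kinases named for transcription, splicing and ribosome assembly were each listed once among the members, and they differed. A04706 is named for Kin28, the budding yeast kinase of transcription factor TFIIH that phosphorylates the tail of RNA polymerase II. It had 7.36, 6.55 and 7.08 CPM at 0 mg/L, 14.2, 14 and 14.5 CPM at 20 mg/L and 8.63, 7.98 and 6.52 CPM at 50 mg/L, with all Cd20 libraries above all others. This was the one member that rose at least 2-fold in Cd20 (log2 fold change 1.02, SE 0.15, edgeR adjusted p = 0.000234), and it was lower in Cd50 than in Cd20 (log2 fold change -0.88, edgeR adjusted p = 0.000339). A04502 is named for SRPK, a family that phosphorylates the serine- and arginine-rich proteins of splicing. Its libraries had 71, 52.3 and 65.1 CPM at 0 mg/L, 87.9, 96 and 112 CPM at 20 mg/L and 57.8, 37.3 and 41.8 CPM at 50 mg/L. It rose in Cd20 against Control (log2 fold change 0.65, SE 0.17, edgeR adjusted p = 0.00728) and was lower in Cd50 than in Cd20 (log2 fold change -1.12, SE 0.17, edgeR adjusted p = 0.000196). Cd50 and Control overlapped, and the fall in Cd50 against Control (-0.47, edgeR adjusted p = 0.0462) was lost at an adjusted p of 0.0533 to 0.199 when scaled by library size, with no filter, with only the 6 libraries compared and under upper quartile scaling, and without Cd20 1, Cd20 2, Cd20 3, Cd50 2, Cd50 3, Control 1 or Control 3. A04033, named for Rio2, an atypical kinase that in yeast matures the small ribosomal subunit, was low, with 1.58, 3.56 and 4.75 CPM at 0 mg/L, 3.37, 3.83 and 5.10 CPM at 20 mg/L and 3.06, 5.64 and 6.75 CPM at 50 mg/L. It was not called in any comparison, and in Cd50 against Control its 0.67 (edgeR adjusted p = 0.166) passed at an adjusted p of 0.0125 to 0.045 with a replicate block, all 9 libraries and with a replicate block, only the 6 libraries compared, and without Cd50 1 or both Control 1 and Cd50 1. In Cd50 against Cd20 its 0.34 passed at 0.0171 without both Control 1 and Cd50 1.

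The CDKL-like gene was lowest at 20 mg/L. A05667 is named for the CDKL family, kinases related to cyclin-dependent kinases that in the green alga Chlamydomonas affect flagellar length. It had 12.7, 27.8 and 26 CPM at 0 mg/L, 6.46, 8.19 and 8.12 CPM at 20 mg/L and 19, 23.7 and 25 CPM at 50 mg/L. All Cd20 libraries lay under all others, and Control 1 lay apart from the other controls, below all Cd50 libraries. It fell in Cd20 (log2 fold change -1.54, SE 0.26, edgeR adjusted p = 0.000643) and was higher in Cd50 than in Cd20 (log2 fold change 1.57, SE 0.26, edgeR adjusted p = 0.000322). In Cd50 against Control the value was 0.03 (edgeR adjusted p = 0.933). The next gene on the chromosome, A05668, described as cyclin-dependent kinase 3 and outside the member list, fell in Cd20 as well (-0.78, edgeR adjusted p = 0.00325).

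**Figure D4:**
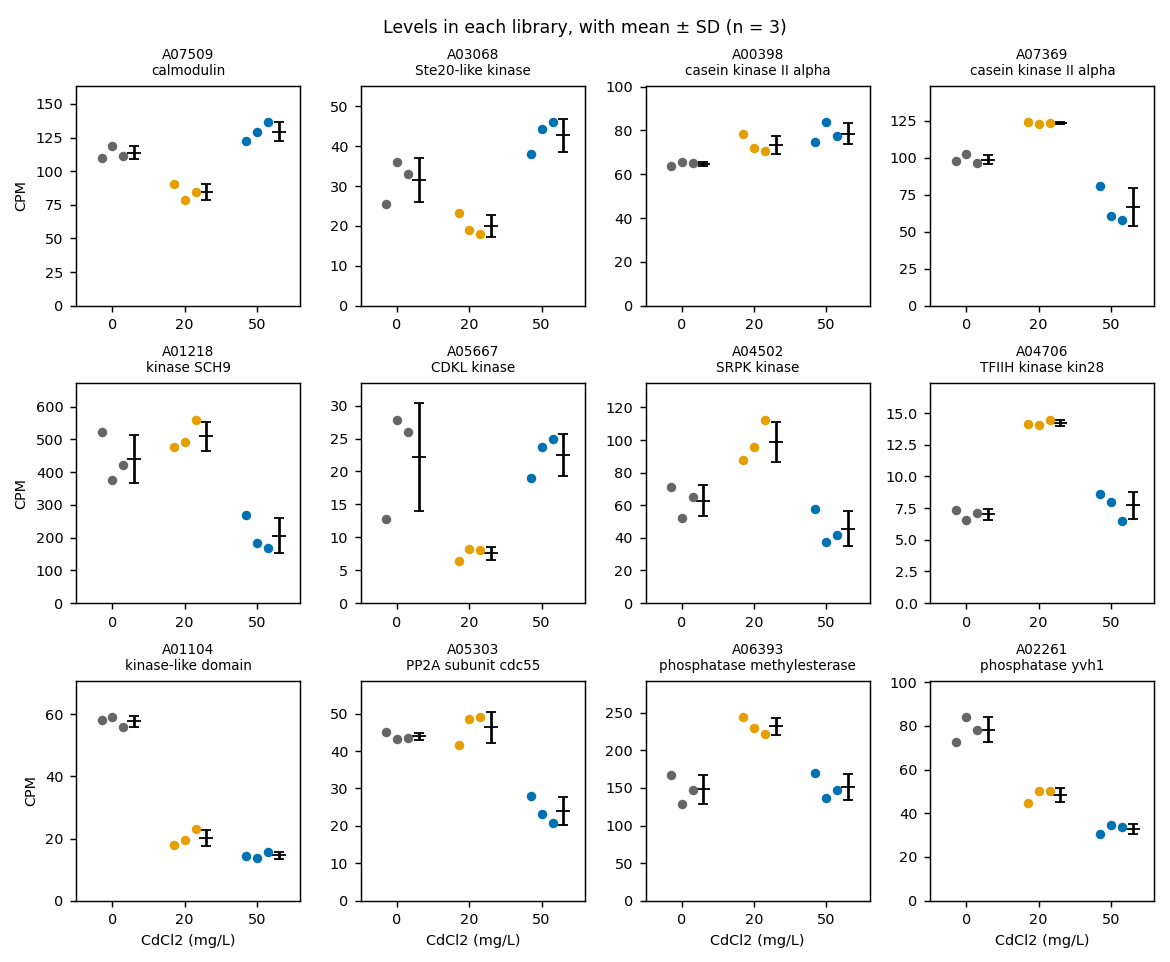
CPM of 12 members in each library, plotted against the CdCl2 concentration in mg/L, with 1 dot per library and a bar for the mean ± SD of 3 libraries. The panels show members lowest at 20 mg/L (calmodulin A07509, Ste20-like A03068, A05667), members lowest at 50 mg/L (A07369, A01218, A04502, A05303) and members lower at both concentrations than at 0 mg/L (A01104, A02261).

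The 23 members named only as a protein kinase or a kinase domain, of which 22 were tested, made up the largest group, and their members went in several directions. In Cd20 against Control 5 rose and 7 fell, in Cd50 against Control 0 rose and 10 fell, and between the cadmium groups 5 were higher and 10 lower in Cd50. These were 22.7% and 31.8% of the 22 in Cd20 against Control (all genes 23.8% and 27.2%), 0% and 45.5% in Cd50 against Control (17.8% and 21.8%), and 22.7% and 45.5% between the cadmium groups (35.3% and 34.7%). Scaled by library size, 2 rose and 7 fell in Cd20 against Control (all genes 18.4% and 31.9%), 2 rose and 7 fell in Cd50 against Control (34.6% and 14.2%), and 8 were higher and 8 lower in Cd50 than in Cd20 (48.8% and 20.3%). Without both Control 1 and Cd50 1, 8 rose and 7 fell in Cd20 against Control, or 36.4% and 31.8% (all genes 32.7% and 33.4%). Also without these 2 libraries, 2 rose and 10 fell in Cd50 against Control, or 9.09% and 45.5% (22.7% and 26.3%). Between the cadmium groups 6 were then higher and 11 lower in Cd50, or 27.3% and 50.0% (39.7% and 38.0%). The deepest fall was in A01104, on chromosome 11 from 439669 to 444182, with 58.3, 59.1 and 55.8 CPM at 0 mg/L, 17.8, 19.5 and 23.1 CPM at 20 mg/L and 14.4, 13.6 and 15.6 CPM at 50 mg/L. The 3 groups did not overlap. It fell in Cd20 against Control (log2 fold change -1.52, SE 0.12, edgeR adjusted p = 2.77e-06) and in Cd50 against Control (log2 fold change -1.99, SE 0.13, edgeR adjusted p = 5.71e-07). It was also lower in Cd50 than in Cd20 (-0.47, edgeR adjusted p = 0.00597), a call lost at an adjusted p of 0.486 when scaled by library size and 0.165 under upper quartile scaling. The abundant A01551 followed the same order, with 207, 201 and 192 CPM at 0 mg/L, 149, 151 and 139.9 CPM at 20 mg/L and 97.4, 100.3 and 91.1 CPM at 50 mg/L. Its log2 fold changes were -0.45 in Cd20 and -1.05 in Cd50 against Control (edgeR adjusted p = 0.00149 and 4.81e-06), and -0.61 between them (edgeR adjusted p = 0.000155). A05832 was lower in both cadmium groups, with 12.2, 12.9 and 12.8 CPM at 0 mg/L, 7.90, 6.88 and 10.4 CPM at 20 mg/L and 8.63, 8.64 and 7.38 CPM at 50 mg/L. Its call in Cd20 (-0.60, edgeR adjusted p = 0.012) was lost at an adjusted p of 0.0628 without Cd20 2, and its call in Cd50 (-0.62, edgeR adjusted p = 0.0115) at an adjusted p of 0.0821 when scaled by library size and 0.0623 without Cd50 3.

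A second set of these genes fell in Cd50 and not, as a call, in Cd20. A02148 had 38, 33.8 and 36.6 CPM at 0 mg/L, 38.8, 39.2 and 40.6 CPM at 20 mg/L and 19.9, 16.4 and 18.5 CPM at 50 mg/L, the Cd50 libraries being under every library of the other groups. Its log2 fold change was -0.99 against Control (SE 0.11, edgeR adjusted p = 4.84e-05) and -1.12 against Cd20 (SE 0.11, edgeR adjusted p = 3.19e-05). A08286 had 107, 74.1 and 82.5 CPM at 0 mg/L, 106, 98.3 and 107 CPM at 20 mg/L and 62.8, 46.8 and 38.9 CPM at 50 mg/L. A04826 had 77.6, 48.6 and 61.6 CPM at 0 mg/L, 81.2, 78.5 and 86.1 CPM at 20 mg/L and 48.6, 28.9 and 30.4 CPM at 50 mg/L. The less abundant A01466 had 23.4, 16.7 and 16.1 CPM at 0 mg/L, 21.1, 22.2 and 24.6 CPM at 20 mg/L and 12.5, 11.1 and 11.1 CPM at 50 mg/L. In each of these 3 the Cd50 libraries were the 3 lowest, in A04826 with Cd50 1 level with Control 2 to the digits shown, and Control 1 was the highest control. They fell in Cd50 against Control by 0.83, 0.80 and 0.70 on the log2 scale (edgeR adjusted p = 0.00279, 0.00817 and 0.00509). In Cd20 against Control they were at 0.24, 0.39 and 0.27, none of them a call (edgeR adjusted p = 0.254, 0.12 and 0.165), although each passed in some settings. A08286 passed at an adjusted p of 0.0425 without Control 1 and 0.000632 without both Control 1 and Cd50 1, and A01466 at 0.0101 without Control 1 and 0.00239 without both Control 1 and Cd50 1. A04826 passed at an adjusted p of 5.34e-05 to 0.039 with only the 6 libraries compared, with a replicate block, all 9 libraries and with a replicate block, only the 6 libraries compared, and without Cd50 1, Control 1 or both Control 1 and Cd50 1, and the authors' deposited table lists a log2 fold change of 0.41 (adjusted p = 0.0237).

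In 3 further kinase-domain genes Cd20 was above Control and Cd50 below it. The most abundant, A06577, had 222, 181 and 193 CPM at 0 mg/L, 235, 247 and 252 CPM at 20 mg/L and 145, 140.4 and 142 CPM at 50 mg/L. Its Cd20 libraries were the 3 highest and its Cd50 libraries the 3 lowest. It was called in Cd20 (0.30, edgeR adjusted p = 0.0204), Cd50 (-0.48, edgeR adjusted p = 0.00217) and Cd50 against Cd20 (-0.78, edgeR adjusted p = 7.01e-05), and the first of these was lost at an adjusted p of 0.0539 to 0.0923 when scaled by library size, and without Cd20 1, Cd20 2, Cd20 3, Control 2 or Control 3. A10230, the longest member, had 171, 118 and 138 CPM at 0 mg/L, 196, 198 and 216 CPM at 20 mg/L and 122, 86.7 and 90.6 CPM at 50 mg/L, and here Cd50 1 overlapped the controls. It rose in Cd20 (0.51, edgeR adjusted p = 0.015), a call lost at an adjusted p of 0.0646 without Control 2 and 0.0553 without Control 3. It fell in Cd50 against Control (-0.51, edgeR adjusted p = 0.0196), lost at an adjusted p of 0.057 to 0.094 when scaled by library size and with only the 6 libraries compared, and without Cd50 2, Cd50 3 or Control 1. Between the cadmium groups it was lower in Cd50 (-1.03, edgeR adjusted p = 0.000178). A09506 had 61.2, 54.5 and 53.3 CPM at 0 mg/L, 66.2, 72.6 and 75.5 CPM at 20 mg/L and 48.6, 43.3 and 43.6 CPM at 50 mg/L. It was at -0.66 in Cd50 against Cd20 (edgeR adjusted p = 0.000236). Its rise in Cd20 (0.34, edgeR adjusted p = 0.0169) was lost at an adjusted p of 0.0531 to 0.0806 when scaled by library size, and without Cd20 2, Cd20 3, Control 2 or Control 3, and its fall in Cd50 (-0.32, edgeR adjusted p = 0.0289) at an adjusted p of 0.0674 to 0.476 when scaled by library size, with only the 6 libraries compared and under upper quartile scaling, and without Cd50 2, Cd50 3 or Control 1.

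Another 4 kinase-domain genes were lowest at 20 mg/L. A10728 had 9.15, 17.8 and 14.2 CPM at 0 mg/L, 5.11, 5.32 and 5.73 CPM at 20 mg/L and 11.7, 16.5 and 17.7 CPM at 50 mg/L. A00366 had 51.5, 52.3 and 54.2 CPM at 0 mg/L, 33.6, 33.4 and 35.7 CPM at 20 mg/L and 41.5, 58.8 and 61.9 CPM at 50 mg/L. In both, all Cd20 libraries lay under all others, while Cd50 and Control overlapped. They fell in Cd20 by 1.35 and 0.62 on the log2 scale (edgeR adjusted p = 0.00103 and 0.00346) and were higher in Cd50 than in Cd20 by 1.51 and 0.66 (edgeR adjusted p = 0.000285 and 0.00134). The less abundant A04612, at 9.37 FPKM, had 4.82, 10.2 and 8.41 CPM at 0 mg/L, 2.89, 2.96 and 3.85 CPM at 20 mg/L and 8.18, 11.9 and 10.9 CPM at 50 mg/L. It fell in Cd20 (-1.26, edgeR adjusted p = 0.00343) and had the highest log2 fold change of any member between the cadmium groups (1.68, SE 0.28, edgeR adjusted p = 0.000311). Its 0.42 in Cd50 against Control (edgeR adjusted p = 0.204) passed with a replicate block in the 6 libraries compared (edgeR adjusted p = 0.0276). A01752, with few counts, had 1.03, 2.82 and 2.0 CPM at 0 mg/L, 0.964, 0.959 and 0.520 CPM at 20 mg/L and 1.62, 2.85 and 1.73 CPM at 50 mg/L. Its fall in Cd20 (-1.21, edgeR adjusted p = 0.0375) was lost at an adjusted p of 0.0621 to 0.162 without Cd20 1, Cd20 2, Cd20 3, Control 2 or Control 3, and its difference between the cadmium groups (1.33, edgeR adjusted p = 0.0169) at an adjusted p of 0.0669 without Cd20 3 and 0.0833 without Cd50 2.

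Of the other kinase-domain genes, A05632 was highest at 20 mg/L, and the rest were called in 1 comparison at most. A05632 had 50.2, 43 and 45.7 CPM at 0 mg/L, 64.8, 67.6 and 60.4 CPM at 20 mg/L and 55, 40.2 and 39.5 CPM at 50 mg/L, with Cd20 above every other library. It rose in Cd20 (0.47, edgeR adjusted p = 0.0125), lost at an adjusted p of 0.0503 without Cd20 1 and 0.0511 without Cd20 2. It was lower in Cd50 than in Cd20 (-0.52, edgeR adjusted p = 0.00473), lost at an adjusted p of 0.194 when scaled by library size and 0.0566 under upper quartile scaling. A06877 had 15.2, 14.8 and 15.2 CPM at 0 mg/L, 21.9, 18.6 and 23.1 CPM at 20 mg/L and 16.8, 22.6 and 18.6 CPM at 50 mg/L, and no control reached any cadmium library. Its rise in Cd20 (0.49, edgeR adjusted p = 0.014) was lost at an adjusted p of 0.052 to 0.0747 when scaled by library size, and without Cd20 1 or Cd20 3, and in Cd50 against Control its 0.36 (edgeR adjusted p = 0.0612) passed at an adjusted p of 0.00907 to 0.0264 when scaled by library size, with a replicate block, only the 6 libraries compared and under upper quartile scaling, and without Cd50 1 or both Control 1 and Cd50 1. A01943 was higher in Cd50 than in Cd20 (0.61, edgeR adjusted p = 0.028), a call lost at an adjusted p of 0.0613 to 0.122 without Cd20 1, Cd20 2, Cd50 2 or Cd50 3. A02932, A03312, A05982, A06400 and A09810 were called in no comparison. Of these, A02932 was the most abundant, with 69.3, 61.5 and 62.6 CPM at 0 mg/L, 59, 62.1 and 53.3 CPM at 20 mg/L and 51.1, 57.2 and 58.6 CPM at 50 mg/L, and the log2 fold changes of the 5 ran from -0.87 to 0.65. In Cd50 against Cd20 A02932 was at -0.06, but passed as higher in Cd50 (0.30) at an adjusted p of 0.0348 when scaled by library size. A03312 passed as higher in Cd50 at 0.0238 to 0.0421 when scaled by library size and under upper quartile scaling, and without both Control 1 and Cd50 1. A06400 passed as lower in Cd50 at 0.0244 without Cd50 1 and 0.0159 without both Control 1 and Cd50 1. A09810 passed as higher in Cd50 at 0.00434 to 0.0434 when scaled by library size and under upper quartile scaling, and without Cd50 2. A03312 also passed in Cd50 against Control, at 0.049 when scaled by library size and 0.0441 without both Control 1 and Cd50 1.

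Of the 11 tested genes with phosphatase in their names, 6 fell and 0 rose in Cd50 against Control. In Cd20 against Control 3 fell and 3 rose, and 8 were lower and 1 higher in Cd50 than in Cd20. These were 54.5% and 0% in Cd50 against Control (all genes 21.8% and 17.8%), 27.3% each in Cd20 against Control (27.2% and 23.8%), and 72.7% and 9.09% between the cadmium groups (34.7% and 35.3%). The 11 include the methylesterase A06393, and the tyrosine phosphatase-like A00171 and A06631, whose name is also given to a dehydratase. Scaled by library size, 4 fell and 1 rose in Cd50 against Control (all genes 14.2% and 34.6%), 5 fell and 2 rose in Cd20 against Control (31.9% and 18.4%), and 5 were lower and 1 higher in Cd50 than in Cd20 (20.3% and 48.8%). Protein phosphatase 2A is an enzyme of a catalytic subunit, a scaffold and an exchangeable B subunit that sets its targets. Both B-subunit genes were lower in Cd50. A05303, named for cdc55, the B subunit of budding yeast, had 45.1, 43.3 and 43.4 CPM at 0 mg/L, 41.6, 48.5 and 49 CPM at 20 mg/L and 28, 23.1 and 20.6 CPM at 50 mg/L. Its Cd50 libraries lay under all others, which overlapped among themselves, and it fell in Cd50 against Control (log2 fold change -0.88, SE 0.13, edgeR adjusted p = 0.000277) and against Cd20 (-0.96, edgeR adjusted p = 0.000106), at 0.08 in Cd20 against Control. A00687, the second B-subunit gene and more abundant at 96.6 FPKM, had 166, 121 and 144 CPM at 0 mg/L, 183, 185 and 199 CPM at 20 mg/L and 125, 88.3 and 81.5 CPM at 50 mg/L. All Cd20 libraries lay above all controls, but 0.39 in Cd20 against Control was not a call (edgeR adjusted p = 0.0542). It passed at an adjusted p of 3.50e-05 to 0.0477 in DESeq2, in limma on log2 CPM, in limma on log2 CPM without each library's length trend, with no filter, with only the 6 libraries compared, with a replicate block, all 9 libraries and with a replicate block, only the 6 libraries compared, and without Cd50 1, Cd50 2, Cd50 3, Control 1 or both Control 1 and Cd50 1, and the authors' deposited table lists a log2 fold change of 0.42 (adjusted p = 0.00481). Cd50 lay under Cd20 throughout (-0.95, edgeR adjusted p = 0.000337). Cd50 1 overlapped the controls, and the fall against Control (-0.55, edgeR adjusted p = 0.0164) was lost at an adjusted p of 0.0504 to 0.0803 when scaled by library size and with only the 6 libraries compared, and without Cd50 2, Cd50 3 or Control 1.

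The remaining genes named for phosphatase 2A, its methylesterase and the related phosphatase 4 differed from the B subunits. A06951, named as the catalytic subunit of phosphatase 2A, was low at 7.48 FPKM, with 7.91, 11.9 and 8.75 CPM at 0 mg/L, 6.84, 4.97 and 4.58 CPM at 20 mg/L and 4.85, 6.66 and 7.07 CPM at 50 mg/L, the controls being highest. Its fall in Cd20 (-0.79, edgeR adjusted p = 0.0124) was lost at an adjusted p of 0.0518 to 0.06 without Cd20 2, Cd20 3 or Control 2. That in Cd50 (-0.61, edgeR adjusted p = 0.0447) was lost at an adjusted p of 0.0528 to 0.225 when scaled by library size, with no filter, with only the 6 libraries compared and under upper quartile scaling, and without Cd20 2, Cd20 3, Cd50 1, Cd50 2, Cd50 3, Control 2 or Control 3. A06393 is named for the methylesterase that removes a methyl group from the end of the phosphatase 2A catalytic subunit. It had 167, 129 and 148 CPM at 0 mg/L, 244, 230.0 and 222 CPM at 20 mg/L and 169.7, 136 and 147 CPM at 50 mg/L, with all Cd20 libraries above all others. It rose in Cd20 (log2 fold change 0.65, SE 0.12, edgeR adjusted p = 0.000926) and was lower in Cd50 than in Cd20 (-0.62, edgeR adjusted p = 0.000658), while Cd50 against Control was at 0.03 (edgeR adjusted p = 0.873), passing at 0.0384 when scaled by library size. A08854, the catalytic subunit of the related phosphatase 4, had 65.4, 50.7 and 63.5 CPM at 0 mg/L, 63, 58.3 and 59.2 CPM at 20 mg/L and 60.5, 52.4 and 55 CPM at 50 mg/L, and the groups overlapped. It was called in no comparison (log2 fold changes 0.01 in Cd20 and -0.10 in Cd50 against Control, edgeR adjusted p = 0.964 and 0.519).

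Protein phosphatase 2C enzymes work as single chains that need magnesium or manganese, and in yeast and land plants they switch off stress kinases. A04458, with the shortest listed length of the members (390 bases), had 109, 107 and 104 CPM at 0 mg/L, 87, 81.9 and 92 CPM at 20 mg/L and 69.7, 58.6 and 53.8 CPM at 50 mg/L. The 3 groups did not overlap. It fell in Cd50 against Control (log2 fold change -0.81, SE 0.11, edgeR adjusted p = 0.000148) and was lower in Cd50 than in Cd20 (-0.52, edgeR adjusted p = 0.0013), the second lost at an adjusted p of 0.119 when scaled by library size. Its fall in Cd20 (-0.29, edgeR adjusted p = 0.041) was lost at an adjusted p of 0.0535 to 0.276 in DESeq2, with RLE size factors, in limma on log2 CPM without each library's length trend, with no filter and with a replicate block, only the 6 libraries compared, and without Cd20 1, Cd20 2, Cd20 3, Cd50 2, Control 1, Control 2 or Control 3. A05031, the second gene of this family, had its highest mean in Cd20, with 24.4, 16.1 and 18.2 CPM at 0 mg/L, 27.8, 31.9 and 36.1 CPM at 20 mg/L and 28.8, 14.6 and 16.3 CPM at 50 mg/L. Cd50 1 lay within the Cd20 range, and the other Cd50 libraries lay among or under the controls. Its rise in Cd20 (0.70, edgeR adjusted p = 0.0283) was lost at an adjusted p of 0.0671 to 0.0989 without Cd20 2, Cd20 3, Control 2 or Control 3. The lower level in Cd50 than in Cd20 (-0.68, edgeR adjusted p = 0.0227) was lost at an adjusted p of 0.0525 to 0.163 when scaled by library size and under upper quartile scaling, and without Cd20 2, Cd20 3, Cd50 2 or Cd50 3.

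Of the 4 tested genes with names of tyrosine or dual-specificity phosphatases, A02261 and A00171 fell at least 2-fold in Cd50 against Control, where 5.62% of all genes did. A02261, on chromosome 14 from 436553 to 437854, is named for yvh1, a dual-specificity phosphatase that in yeast also acts in assembly of the large ribosomal subunit. It had 72.7, 83.9 and 78.1 CPM at 0 mg/L, 44.6, 50.1 and 50.4 CPM at 20 mg/L and 30.3, 34.5 and 33.9 CPM at 50 mg/L, without overlap between any pair of groups. It fell in Cd20 (log2 fold change -0.69, SE 0.11, edgeR adjusted p = 0.00029) and in Cd50 (log2 fold change -1.25, SE 0.11, edgeR adjusted p = 5.61e-06) against Control. In Cd50 against Cd20 it was at -0.56 (edgeR adjusted p = 0.000755), a call lost at an adjusted p of 0.185 when scaled by library size. A08837, which carries the same product name, took another course, with 8.95, 11.4 and 10.8 CPM at 0 mg/L, 8.58, 7.41 and 8.43 CPM at 20 mg/L and 11.1, 9.95 and 12.8 CPM at 50 mg/L. It was higher in Cd50 than in Cd20 (0.47, edgeR adjusted p = 0.0209), lost at an adjusted p of 0.0643 to 0.0916 in limma on log2 CPM without each library's length trend, and without Cd20 2 or Cd50 3, and at -0.35 in Cd20 and 0.12 in Cd50 against Control without a call. The value in Cd20 passed at an adjusted p of 0.0255 to 0.0445 when scaled by library size, and without Control 1 or both Control 1 and Cd50 1. A00171 and A06631 are described as tyrosine phosphatase-like, a name also given to a dehydratase of fatty acid elongation. A00171 had 38.3, 36 and 32.6 CPM at 0 mg/L, 25.9, 23 and 34.7 CPM at 20 mg/L and 14.6, 15.7 and 11.5 CPM at 50 mg/L, Cd50 being lowest. It fell in Cd50 against Control (log2 fold change -1.35, SE 0.17, edgeR adjusted p = 9.10e-05) and against Cd20 (-1.0, edgeR adjusted p = 0.000385). In Cd20 against Control its -0.36 (edgeR adjusted p = 0.0884) passed at an adjusted p of 0.0246 to 0.0351 when scaled by library size and under upper quartile scaling, and without Cd20 3. A06631 had 24.7, 19 and 21 CPM at 0 mg/L, 28.8, 29.5 and 33.8 CPM at 20 mg/L and 23.1, 14.8 and 14.5 CPM at 50 mg/L, Cd20 being highest. It was lower in Cd50 than in Cd20 (-0.82, edgeR adjusted p = 0.00187). Its rise in Cd20 (0.51, edgeR adjusted p = 0.0337) was lost at an adjusted p of 0.0577 to 0.111 when scaled by library size, and without Cd20 1, Cd20 2, Cd20 3, Control 2 or Control 3, and in Cd50 against Control its -0.31 (edgeR adjusted p = 0.195) passed at an adjusted p of 0.00721 to 0.0395 with a replicate block, only the 6 libraries compared, and without Cd50 1 or both Control 1 and Cd50 1.

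The 3 members whose names are those of metabolite kinases made up little of these counts. A09875, named for the enzyme that makes NADP from NAD, had 24.6, 12.5 and 16.7 CPM at 0 mg/L, 26.3, 29.8 and 29.7 CPM at 20 mg/L and 20.8, 19.2 and 19.9 CPM at 50 mg/L. It rose in Cd20 (0.67, edgeR adjusted p = 0.0146), lost at an adjusted p of 0.0565 without Control 3. It was lower in Cd50 than in Cd20 (-0.52, edgeR adjusted p = 0.032), lost at an adjusted p of 0.0618 to 0.455 when scaled by library size and under upper quartile scaling, and without Cd20 1, Cd20 2, Cd20 3, Cd50 2 or Cd50 3. The ribokinase-like genes A03124 and A09572, of a family that phosphorylates sugars, were not called in any comparison. In Cd50 against Cd20 A03124 (0.28) passed at an adjusted p of 0.000962 to 0.0478 when scaled by library size, in limma on log2 CPM, with only the 6 libraries compared and under upper quartile scaling, and without Cd50 1, Control 1 or both Control 1 and Cd50 1, and A09572 (0.30) at 0.00601 to 0.024 when scaled by library size and under upper quartile scaling, and without Cd50 1 or both Control 1 and Cd50 1. In Cd50 against Control A03124 (0.21) passed at 0.0136 to 0.0292 when scaled by library size and under upper quartile scaling, and without both Control 1 and Cd50 1, and A09875 (0.15) at 0.0334 without Control 1 and 0.0194 without both Control 1 and Cd50 1. Without these 3, 11 of 45 rose and 14 fell in Cd20 against Control (all genes 23.8% and 27.2%). In Cd50 against Control 2 rose and 20 fell (17.8% and 21.8%), and in Cd50 against Cd20 9 rose and 23 fell (35.3% and 34.7%). In either direction 55.6%, 48.9% and 71.1% of the 45 were called, where 51.0%, 39.6% and 70.0% of all genes were.

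A second list of signalling genes outside the member rule, chosen by product words, held 16 genes, all tested. In Cd20 against Control 1 rose and 4 fell, in Cd50 against Control 1 rose and 3 fell, and 5 were higher and 4 lower in Cd50 than in Cd20. In either direction 31.2%, 25.0% and 56.2% of the 16 were called, where 51.0%, 39.6% and 70.0% of all genes were. Its 9 cyclin and cyclin-dependent kinase genes gave 0 rises and 2 falls in Cd20 against Control, 1 rise and 2 falls in Cd50 against Control, and 3 rises and 2 falls in Cd50 against Cd20, or 22.2%, 33.3% and 55.6% called. A01325, named as a cyclin-dependent kinase, a class of kinases that drive the cell cycle or transcription, averaged 107 ± 14.6 CPM in Cd50 and 231 ± 32.9 CPM in Control (SD, n = 3 each; log2 fold change -1.11, edgeR adjusted p = 7.18e-05). A09250, described as cyclin-dependent kinase 3, averaged 5.70 ± 0.931 CPM in Cd20 and 13 ± 4.13 CPM in Control (-1.19, edgeR adjusted p = 0.0015). The 14-3-3 proteins, which bind phosphorylated sites made by kinases, had 2 genes. A10072 averaged 157 ± 2.33 CPM at 0 mg/L, 129 ± 6.42 CPM at 20 mg/L and 132 ± 5.22 CPM at 50 mg/L (SD, n = 3 each), with log2 fold changes of -0.28 and -0.25 against Control (edgeR adjusted p = 0.017 and 0.0361). A09984 was lower in Cd50 than in Cd20 (-0.32, edgeR adjusted p = 0.00779). No gene name for cyclic nucleotide signalling or response regulators was found by these words.

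The authors' deposited tables, which list only genes under an adjusted p of 0.05, held 27 of the 51 members for Cd20 against Control, 17 for Cd50 against Control and 31 for Cd50 against Cd20. Of these, 25, 17 and 31 were also called by edgeR here, each in the same direction. In the authors' deposited table for Cd50 against Control all 17 members had a negative log2 fold change, and the casein kinase II gene A00398 and the Ste20-like A03068, the 2 rises reported here, were not among them.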

How the data were processed

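Work began from the deposited tables. Per the labels' protocols, libraries were poly(A)-selected and kept strand by dUTP. DESeq2 1.34.0, StringTie 2.2.1 and STAR 2.7.10a stand in the submitters' processing notes, without a role. No source used here gives the counter, its strand setting, the assembly or the annotation (not given in the sources used here), which leaves reads of near-identical genes uncertain. The authors deposited raw counts, as whole numbers. The deposited FPKM values equal counts scaled to the listed length and the library total, as recomputing them showed, and served to compare levels between genes. Per the file headers, the authors' comparison tables hold a log2 fold change and an adjusted p-value. A separate table of gene positions was not used.

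The test was run with edgeR 4.0.16 on R 4.3.3 (TMM factors, filterByExpr, quasi-likelihood F-test), with 1 fit of all 9 libraries by group. The filter kept 11140 of 12605 genes, and the common biological coefficient of variation was 0.139. CPM are counts scaled to library size times TMM factor, and SE is the log2 fold change over the square root of F. Alternatives were DESeq2 1.42.0, other scalings, no filter, fits of 6 libraries, replicate blocks and leaving out libraries. Fits by limma 3.58.1 on log2 CPM (prior count 2), with and without each library's loess trend on length, were added with the data in hand. The edgeR steps were also run on simulated counts, with far fewer changed genes than were called here and the same spread for all genes. That setting is unlike these data and cannot show how the scaling or the displaced libraries acted on the calls. Libraries of 1 group differed by more than counting noise.

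Members, lists and classes were chosen with earlier results of these data known. The rule named, per comparison, the 6 largest rises and falls at 10 CPM or more without overlap, the lowest adjusted p and highest FPKM per role class, and all members of classes of 5 or fewer. Other members were named with their values known, as were the 3 metabolite kinase names set apart. The yvh1 names escaped the words of the tyrosine class and are described there. Residuals of libraries with the same number correlated at 0.594, 0.449 and 0.186 for Cd50 and Control. The correlations were -0.167, 0.056 and -0.0454 for Cd20 and Control and -0.214, 0.132 and -0.218 for Cd50 and Cd20. Residuals were taken from group means of 3 libraries, so the values of 1 comparison are not independent. Control 1 and Cd50 1 both lay apart from their groups, so the values cannot show whether numbers pair libraries. The labels do not say what a number stands for, and the test had no block.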

Additional observations from a re-analysis of the deposited data

How the results depend on the processing

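The calls kept in each setting run were 12 of 26 in Cd20 against Control, 14 of 22 in Cd50 against Control and 24 of 33 in Cd50 against Cd20, and no called value changed sign. Uncalled members passed in some setting for 8 of 22, 10 of 26 and 9 of 15. Without 1 library at a time, 5 to 15 members rose and 10 to 14 fell in Cd20 against Control. In Cd50 against Control 0 to 4 rose and 14 to 20 fell, and in Cd50 against Cd20 7 to 11 rose and 22 to 25 fell. Scaled by library size, 7 members rose in Cd20 against Control, 7 in Cd50 against Control and 16 in Cd50 against Cd20, with the median of all genes at -0.16, 0.26 and 0.38 (log2). Under upper quartile scaling 5 rose in Cd50 against Control and 15 in Cd50 against Cd20. In the 6 libraries compared, 0 rose in Cd50 against Control by edgeR, and 6 with a replicate block. Without both Control 1 and Cd50 1, 8 rose there. By DESeq2 13, 2 and 9 members rose and 13, 20 and 24 fell in the 3 comparisons. For Cd20 against Control and Cd50 against Cd20, a replicate block over all 9 libraries gave 14 rises and 14 falls, and 9 rises and 24 falls. Shares of all genes called are not given here for DESeq2, the 6-library fits, the block fits and the fits without 1 library. They are also not given for calls kept or gained over the settings, so these counts describe the members alone. Some uncalled values near 0 changed sign, and not all are listed here. In Cd50 against Cd20, A03215 did so in 10 of 20 settings, A05832 in 6 and A02932 in 3. A05982 did so in 12 of 18 settings in Cd20 against Control, and A05632 in 5 of 20 in Cd50 against Control. In Cd20 against Control, A05303 and A11021 were at -0.042 and -0.055 scaled by library size and at -0.0125 and -0.025 under upper quartile scaling. In Cd50 against Control, leaving out 1 library gave -0.23 to 0.23 for A05667, -0.35 to 0.23 for A05031, -0.070 to 0.14 for A06393, -0.044 to 0.39 for A10728, -0.058 to 0.47 for A09875 and -0.047 to 0.19 for A00366. Without both Control 1 and Cd50 1, A05667 and A05031 were at -0.12, and limma put A05031 at -0.016, and at -0.0175 without the length trend. The cause was not tested. Low counts limit A00426, A01752 and A04033.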

Other observations

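Kinase names that the word rule missed are given here as values. Of 5 such genes, 4 named Pkinase were tested, and 1 named MEK kinase (A04808) was not. Of these 4, 1 rose and 0 fell in Cd20 against Control (all genes 23.8% and 27.2%). In Cd50 against Control 1 rose and 1 fell (17.8% and 21.8%), and in Cd50 against Cd20 0 rose and 3 fell (35.3% and 34.7%). In either direction 25.0%, 50.0% and 75.0% of the 4 were called, where 51.0%, 39.6% and 70.0% of all genes were. A01753 rose in Cd20 (0.38, edgeR adjusted p = 0.0266) and in Cd50 (0.46, edgeR adjusted p = 0.0143) against Control. A02044 fell in Cd50 against Control (-0.75, edgeR adjusted p = 0.00425) and against Cd20 (-0.96, edgeR adjusted p = 0.00043). A00187 and A02776 were lower in Cd50 than in Cd20 (-0.47 each, edgeR adjusted p = 0.005 and 0.0144). A calcium-binding gene outside the rule, A10142, named for EF-hand domains, had few counts, averaging 3.99 ± 1.66 CPM at 0 mg/L, 1.47 ± 0.181 CPM at 20 mg/L and 6.26 ± 1.55 CPM at 50 mg/L (SD, n = 3 each). It fell in Cd20 against Control (-1.42, edgeR adjusted p = 0.00561) and was higher in Cd50 than in Cd20 (2.09, edgeR adjusted p = 0.000261).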
